A study of Mus musculus with 8 samples.

Results

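The glycolysis genes described here are 10 mouse genes that encode enzymes of glucose breakdown to lactate, namely Hk2, Gpi1, Pfkp, Aldoa, Tpi1, Gapdh, Pgam1, Eno1, Pkm and Ldha. They were measured in HL1 cells, a cultured cardiac muscle line derived from mouse atrial cardiomyocytes. Each gene was given the assembled locus that lies on its strand and shares at least 0.5 of the joint span with the GENCODE M21 gene on the mm10 assembly. By this rule 8 of the 10 genes had a value of their own among the 65265 entries of the short-read table, and Aldoa and Tpi1 did not. Just inside the limit, the Ldha locus shared 0.69 of the joint span, and just outside it the best overlap with either of the 2 genes annotated as Aldoa was 0.34.

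All libraries came from HL1 cultures grown in Claycomb medium with 10% serum and 0.1 mM norepinephrine. Nuclei were opened in a buffer of urea and a mild detergent. RNA released into the supernatant was taken as nucleoplasm and RNA held in the pellet as chromatin, and ERCC standards (synthetic RNAs of known sequence) were added to each before RNA extraction. The short-read data hold 3 libraries per fraction from 3 independent cultures, with 50 bp stranded reads after removal of ribosomal RNA. The long-read data hold 2 libraries of chromatin RNA only, to which a poly(A) tail had been added before cDNA was made. One label field reads chromatin for the nucleoplasm libraries as well, and the titles were followed. HL1 is a single immortalised line, and its values describe that line rather than heart tissue.

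Glycolysis splits glucose into pyruvate in the cytosol and yields ATP without oxygen. Hexokinase, phosphofructokinase and pyruvate kinase catalyse its nearly irreversible steps, and lactate dehydrogenase regenerates the NAD+ that Gapdh consumes. The adult heart draws most of its energy from fatty acids, while the fetal and the oxygen-starved heart rely more on glucose. mRNAs of these enzymes are translated in the cytoplasm, so a nucleus holds transcripts being made, processed or exported. Many of these genes are known targets of the hypoxia-inducible factors, which bind the core letters ACGTG or GCGTG, and of MYC, which binds CACGTG.

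The sequences upstream of the start sites are given first, as a description. Their relation to the difference between fractions was not tested. Each sequence covers the 250 bases before the RefSeq start site (GRCm38.p6). Of the 10 windows, those of Hk2, Gapdh, Pgam1, Eno1 and Ldha hold no annotated exon of the same strand, and these are shown. Capitals mark, on either strand, the motif ACGTG, the motif GCGTG, the motif CACGTG, the core of a GC box (GGGCGG) and the letters of a TATA box (TATAAA). Each match to CACGTG also counts as a match to ACGTG on both strands.

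Gapdh, chr6:125165774-125166023, minus strand: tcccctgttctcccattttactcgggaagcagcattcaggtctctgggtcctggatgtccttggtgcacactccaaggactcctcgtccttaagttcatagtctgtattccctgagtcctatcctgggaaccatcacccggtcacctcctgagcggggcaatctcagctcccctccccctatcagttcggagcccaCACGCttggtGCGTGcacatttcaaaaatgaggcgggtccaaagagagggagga
Ldha, chr7:46845554-46845803, plus strand: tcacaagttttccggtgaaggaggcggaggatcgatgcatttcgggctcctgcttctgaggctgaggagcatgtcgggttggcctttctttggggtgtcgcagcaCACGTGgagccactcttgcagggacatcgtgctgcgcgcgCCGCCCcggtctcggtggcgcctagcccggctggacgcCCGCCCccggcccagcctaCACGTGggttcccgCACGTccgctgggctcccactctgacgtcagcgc
Eno1, chr4:150236458-150236707, plus strand: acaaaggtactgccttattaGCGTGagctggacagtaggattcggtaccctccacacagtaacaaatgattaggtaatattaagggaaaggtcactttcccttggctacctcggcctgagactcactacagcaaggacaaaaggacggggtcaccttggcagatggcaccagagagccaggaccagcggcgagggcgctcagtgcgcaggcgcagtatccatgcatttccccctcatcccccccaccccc
Pgam1, chr19:41911621-41911870, plus strand: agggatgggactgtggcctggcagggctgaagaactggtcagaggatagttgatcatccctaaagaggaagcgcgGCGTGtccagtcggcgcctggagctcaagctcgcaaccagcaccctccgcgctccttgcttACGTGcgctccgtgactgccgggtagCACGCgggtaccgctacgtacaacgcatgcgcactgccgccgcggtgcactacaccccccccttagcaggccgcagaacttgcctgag
Hk2, chr6:82774455-82774704, minus strand: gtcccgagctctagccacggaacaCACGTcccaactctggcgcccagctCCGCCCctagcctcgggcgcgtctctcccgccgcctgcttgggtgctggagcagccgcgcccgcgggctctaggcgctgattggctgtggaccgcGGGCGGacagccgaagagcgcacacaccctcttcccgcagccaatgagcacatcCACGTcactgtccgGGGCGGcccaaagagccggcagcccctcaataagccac

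CACGTG was found only in the Ldha window among the 10, at 2 places that the capitals show, and 6.02% of all 32817 RefSeq windows of the same length hold it. ACGTG was found in 3 of the 10 windows (Pgam1, Ldha and Hk2), against 16.6% of all windows. GCGTG was found in 4 (Gapdh, Pgam1, Eno1 and Pfkp), against 28.1%. GGGCGG was found in 6 (Tpi1, Pkm, Ldha, Gpi1, Hk2 and Pfkp), against 32.7%, and TATAAA in none, against 12.4%. The share of G or C ran from 50.4% in the Aldoa window to 67.2% in that of Ldha and 69.6% in that of Hk2. Only the Aldoa window lay below the median of 52.4% over all windows. The motif shares over all windows were not matched for this content. The matches describe letters in these windows and were set against no measurement of binding.

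Values from short reads are normalized counts, that is gene counts divided by the authors' size factor for each library and not scaled for length. The whole-number counts recovered from these values totalled 91657034 to 121773350 per library. A lower normalized count is a lower count relative to the size factor of its library. It is only roughly a part of the sequenced RNA, since normalized totals differed between libraries. Nor does it give the amount of an RNA per nucleus. Between libraries of the same fraction, fewer nuclei of a kind and less RNA per nucleus cannot be told apart. The 2 fractions were set against each other by limma, fitted to log2 values after adding 1, with Benjamini-Hochberg adjustment over the 35817 entries above 0 in at least 1 library. The fractions separated the RNAs used as controls. Malat1 and Pvt1, long noncoding RNAs of the nucleus, were 14.2-fold and 15.3-fold higher in chromatin. B2m, a subunit of class I antigen molecules, was 6.34-fold higher in nucleoplasm. The authors' RT-qPCR check of the fractions used GAPDH beside B2M for nucleoplasm, and Gapdh is among the genes described here. Their mouse primers hold none for Pvt1.

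The libraries were also checked for the labelled cell type and for other RNA. Of 8 cardiomyocyte markers 6 had a locus of their own. Their summed normalized count was 129762 to 237215 in chromatin and 64798 to 132712 in nucleoplasm. The lowest sum of each fraction was that of replicate 3. Ryr2 alone held 101687 to 177668 in chromatin and 14020 to 25856 in nucleoplasm. Ryr2 was higher in chromatin (log2 fold change 2.83) and Myl7 lower (-2.10) at an adjusted p under 0.05. Actc1, Nppa, Myl4 and Nkx2-5 did not pass, each with a lower mean in chromatin. The atrial peptide gene Nppa was at 10.4 to 26.4 in chromatin and 15.9 to 112.7 in nucleoplasm, low beside the other markers. The 5 fibroblast markers summed to 101764 to 117258 in chromatin and 212681 to 347926 in nucleoplasm, nearly all of it Col1a1, while Lum was at 0 in 5 of 6 libraries. Of the 4 endothelial markers Cdh5 was at 0 in every library (sums 1049 to 1828 and 1755 to 2934), and of the 3 leukocyte markers Ptprc did not exceed 4.07 (sums 77.2 to 180.0 and 76.8 to 105.5). Of 6 mitochondrial RNAs 4 had a locus of their own, and these summed to 28280 to 56907 in chromatin and 288792 to 430870 in nucleoplasm. Their part in the differences below was not tested.

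Of the 8 glycolysis genes 6 were lower in chromatin than in nucleoplasm at an adjusted p under 0.05, Pfkp was higher (-0.06 on the log2 scale after quantile normalization), and Hk2 did not pass. Among the 6, Pkm lay at 0.04 and Gpi1 at -0.33 with ERCC scaling, neither of them called. Of all entries tested 20.9% were lower and 26.9% higher by the same rule. The median log2 fold change (chromatin minus nucleoplasm) was -1.33 over the 8 genes, 0.38 over all entries and -0.32 over the 10957 coding loci, of which 43.4% were lower and 25.5% higher. Gapdh, Eno1 and Ldha were lower by more than 4 fold, as were 4.90% of all entries and 6.06% of coding loci, but none of the 8 genes was with ERCC scaling or without chromatin replicate 3. The genes are taken below in the order of the pathway.

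**Figure D1:**
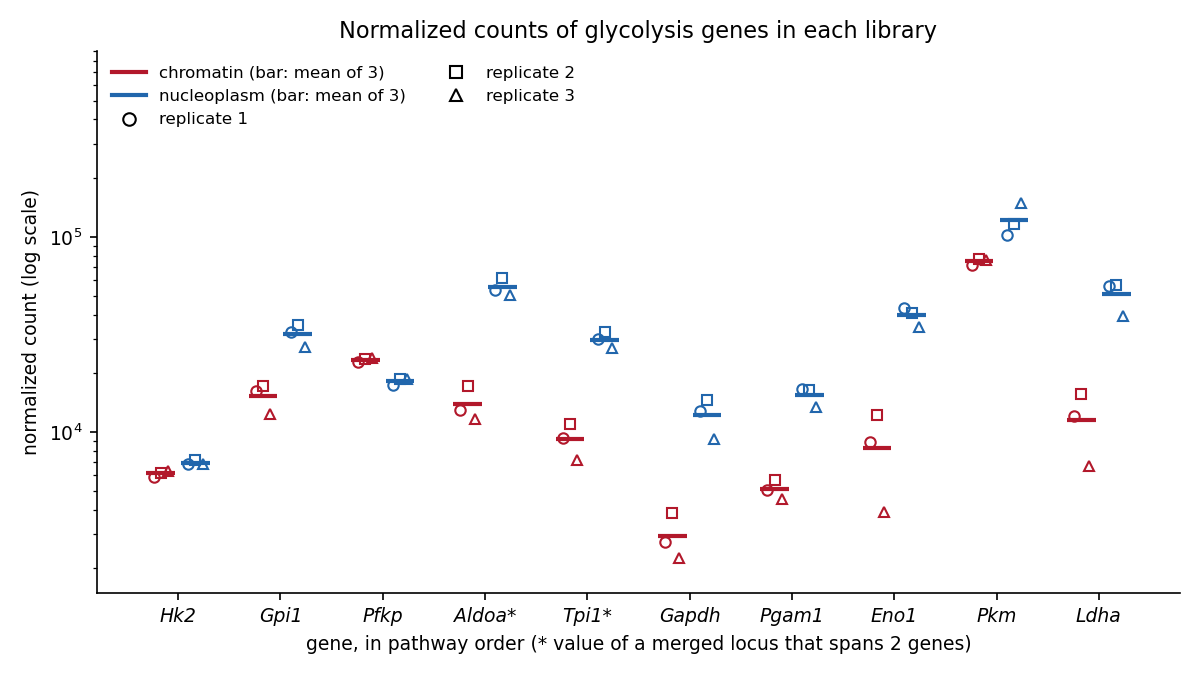
Normalized counts (log scale) of the 10 genes in pathway order, with each symbol a library and each bar the mean of 3 libraries of chromatin (red) or nucleoplasm (blue). In Gapdh, Pgam1, Eno1, Pkm, Ldha and Gpi1 all 3 chromatin values lie below all 3 nucleoplasm values, in Pfkp they lie above, and in Hk2 the gap is narrow; for Aldoa and Tpi1 the values are those of loci that span 2 gene names.

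Hk2 encodes hexokinase 2, which traps glucose in the cell as glucose 6-phosphate and is the insulin-responsive hexokinase of muscle. Its locus (chr6:82725025-82774454, minus strand) held 5909, 6202 and 6299 normalized counts in chromatin replicates 1 to 3. In nucleoplasm replicates 1 to 3 it held 6823, 7176 and 6889. The chromatin values lay below the nucleoplasm values without overlap, yet the log2 fold change of -0.18 (SE 0.07) did not pass (limma, adjusted p = 0.085). It was called lower with edgeR (adjusted p = 0.022) and DESeq2 (adjusted p = 0.013), and lay at 0.55 without a call with ERCC scaling.

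Gpi1 encodes glucose-6-phosphate isomerase, which converts glucose 6-phosphate to fructose 6-phosphate. At its locus (chr7:34201330-34230336, minus strand) the chromatin libraries had 16238, 17281 and 12416 normalized counts and the nucleoplasm libraries 32611, 35468 and 27365. Replicate 3 was the lowest in either fraction, and the fractions did not overlap. Gpi1 was 2.08-fold higher in nucleoplasm, at a log2 fold change of -1.06 (SE 0.17, limma adjusted p = 0.0027). With ERCC scaling it was at -0.33 and not called (adjusted p = 0.19).

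Pfkp encodes the platelet form of phosphofructokinase, the main control point of the pathway. Its locus (chr13:6579768-6648777, minus strand) had 22944, 23559 and 23942 normalized counts in chromatin. In nucleoplasm it had 17487, 18664 and 18601. It was the only one of the 8 genes with higher values in chromatin, by 1.29-fold, and the log2 fold change was 0.36 (SE 0.08, limma adjusted p = 0.011), though it lay at -0.06 after quantile normalization. This lay beside the median of all entries tested (0.38) and above that of coding loci. The spread among replicates was the narrowest of the 8 genes in chromatin, with a coefficient of variation of 2.14%.

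Aldolase A cleaves fructose 1,6-bisphosphate, and triose phosphate isomerase interconverts its products. The locus that covers Aldoa (chr7:126785276-126809510, minus strand) also spans Ppp4c, a phosphatase subunit gene, and 2 annotated Aldoa genes. It held 13026, 17212 and 11666 normalized counts in chromatin and 53726, 61942 and 50432 in nucleoplasm. The locus that covers Tpi1 (chr6:124810592-124829484, minus strand) also spans Usp5, a ubiquitin protease gene that takes up most of it. It held 9291, 11058 and 7231 in chromatin and 29871, 32612 and 26906 in nucleoplasm. Both merged loci were lower in chromatin, with log2 fold changes of -2.00 (SE 0.17) and -1.71 (SE 0.18), but the part of each gene in these values is not known and they enter no count of the 8 genes.

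Gapdh encodes glyceraldehyde-3-phosphate dehydrogenase, which couples oxidation of a triose phosphate to reduction of NAD+ and is a common reference gene. The authors used it as a nucleoplasm control, so the direction of its difference is that of a chosen control. Its locus (chr6:125161715-125166467, minus strand) had 2718, 3842 and 2254 normalized counts in chromatin. In nucleoplasm it had 12858, 14620 and 9265. The lowest nucleoplasm value lay well above the highest chromatin value. Gapdh was 4.17-fold higher in nucleoplasm, and the log2 fold change was -2.07 (SE 0.25, limma adjusted p = 0.00089).

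The Gapdh count was read beside its copies. Of the 50 bp runs in the longest coding Gapdh transcript, 82.5% also occur in annotated transcripts of other genes, which number 218 and include 213 pseudogenes. Loci named for 14 of these pseudogenes held 1921 normalized counts in the mean chromatin library and 9155 in the mean nucleoplasm library, or 65.4% and 74.8% of the Gapdh value. The best match, Gm7336, reached 1948 by itself. The reads of Gapdh and of these copies cannot be told apart over the shared runs, so the Gapdh level is uncertain. With the pseudogene loci added, which was chosen after the data were seen, the log2 fold change was -2.15.

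Pgk1, the next enzyme of the pathway and not one of the 10 genes, had no locus of its own. A locus that covers it and extends beyond it downstream (chrX:106187100-106223668) held 5937, 6991 and 5321 normalized counts in chromatin and 22918, 23455 and 24143 in nucleoplasm. Its log2 fold change was -1.96 (SE 0.12).

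Pgam1 encodes phosphoglycerate mutase 1, which moves the phosphate of 3-phosphoglycerate. Its locus (chr19:41911923-41918660, plus strand) had 5075, 5680 and 4553 normalized counts in chromatin. In nucleoplasm it had 16600, 16521 and 13436. The fractions stood far apart relative to their spread. Pgam1 was 3.04-fold higher in nucleoplasm, at a log2 difference of -1.60 (SE 0.13, limma adjusted p = 0.00017), the lowest adjusted p of the 8 genes. Pseudogenes share 41.5% of its 50 bp runs, but no locus of the table is named for them.

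Eno1 encodes the ubiquitous enolase, which forms phosphoenolpyruvate. The gene lies at chr4:150236721-150248879 on the plus strand, and its locus runs on to 150251929. The chromatin libraries had 8858, 12199 and 3909 normalized counts, and the nucleoplasm libraries 43080, 40991 and 34735. Chromatin replicate 3 was far below the other two, and the coefficient of variation in chromatin was 50.1%, the widest of the 8 genes. Eno1 had the lowest log2 fold change of the 8 genes, -2.39 (SE 0.41, limma adjusted p = 0.0039). Other annotated genes, mostly pseudogenes, share 72.2% of its 50 bp runs, and 3 loci of the table are named for them. Together these 3 held 4818, 6840 and 2225 normalized counts in chromatin and 23676, 23552 and 20118 in nucleoplasm, more than the loci of the 2 pseudogenes among them, which alone came to 29.0% of the Eno1 value in chromatin and 29.6% in nucleoplasm. The other, annotated as coding, shares 1395 of the 1428 runs in question, so the Eno1 level is uncertain as well.

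Pkm encodes the muscle and ubiquitous forms of pyruvate kinase, which makes pyruvate and ATP. At its locus (chr9:59656368-59679375, plus strand) chromatin had 71798, 76724 and 76217 normalized counts. Nucleoplasm had 102252, 116120 and 149222. The values of the fractions did not overlap, and replicate 3 was the highest in nucleoplasm, unlike in the other genes that were lower in chromatin. The difference was 1.64-fold, with a log2 fold change of -0.69 (SE 0.17, limma adjusted p = 0.017). It lay at 0.04 with ERCC scaling, and was not called without chromatin replicate 1 (adjusted p = 0.064) or with no filter on low values (adjusted p = 0.13). The pseudogene Gm6560, which shares many of its runs, held up to 28405 normalized counts, and with this locus added the log2 fold change of Pkm was -0.79.

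Ldha encodes the lactate dehydrogenase subunit that prevails in glycolytic tissue. The gene is annotated at chr7:46841475-46855627 on the plus strand, and the assembled locus began at 46845804, where RefSeq places the start site that follows the window printed above. Chromatin libraries had 12136, 15761 and 6706 normalized counts and nucleoplasm libraries 56323, 56812 and 39292. Replicate 3 was the lowest in both fractions, most clearly in chromatin. Ldha was 4.40-fold higher in nucleoplasm, at a log2 fold change of -2.20 (SE 0.34, limma adjusted p = 0.0024).

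**Figure D2:**
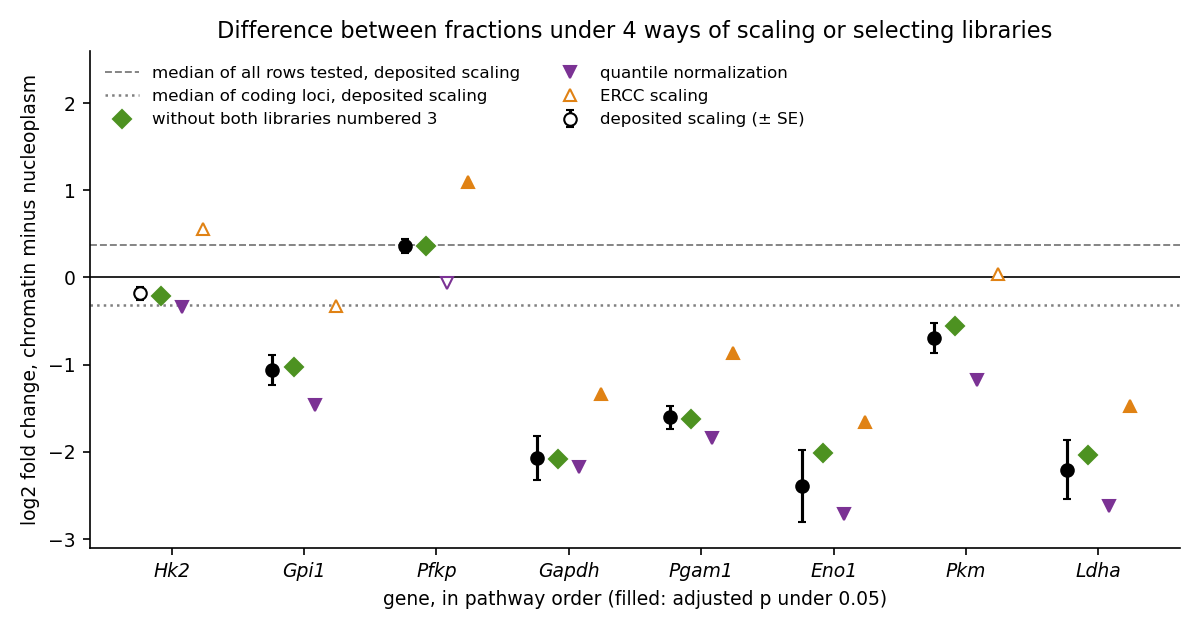
Log2 fold change (chromatin minus nucleoplasm) of the 8 genes with a locus of their own under the deposited scaling (black, ± SE), without both libraries numbered 3 (green), after quantile normalization (purple) and with each library scaled to its ERCC total (orange), where filled symbols passed an adjusted p of 0.05. Gapdh, Pgam1, Eno1 and Ldha stay between -2.71 and -0.87, while Hk2 and Pkm lie above 0 with ERCC scaling (0.55 and 0.04) and Pfkp lies at -0.06 after quantile normalization.

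The order of the fractions depended on scaling for 3 genes. ERCC totals were 183950 to 213760 normalized counts in chromatin and 261886 to 392823 in nucleoplasm. Scaling to them raised the median over all entries by 0.46 to 0.83. On that scale Gapdh (-1.34), Pgam1 (-0.87), Eno1 (-1.66) and Ldha (-1.47) were called lower, Gpi1 at -0.33 was not called, and Pkm turned to 0.04 and Hk2 to 0.55 without a call. Pfkp was called at 1.10. All of the 8 genes except Pfkp still lay below the median of all entries. Quantile normalization put Pfkp at -0.06, without a call, and Hk2 at -0.34, called lower.

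Both libraries numbered 3 held fewer cardiomyocyte marker counts, and Eno1, Ldha, Gapdh, Pgam1 and Gpi1 were also at their lowest in them. The fibroblast sums were at their highest in the same libraries (117258 in chromatin and 347926 in nucleoplasm), as were Col1a1, Dcn and Pdgfra each, and the part of either list in these results was not tested. The ratio was therefore read within each number, although the labels do not say that a shared number is a shared culture. From number 1 to 3 the log2 ratio of chromatin to nucleoplasm was -2.28, -1.75 and -3.15 for Eno1, -2.21, -1.85 and -2.55 for Ldha, and -2.24, -1.93 and -2.04 for Gapdh. For Pgam1 it was -1.71, -1.54 and -1.56. All 3 ratios of these genes were below 0. Without both libraries numbered 3, an alternative chosen after the data were seen, Eno1 was at -2.02, Ldha at -2.03 and Gapdh at -2.08, and all 3 were still called lower by more than 4 fold. Without chromatin replicate 3 alone none of the 8 genes passed 4 fold, with Eno1 at -1.92, Gapdh at -1.90 and Ldha at -1.86, all called lower.

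The log2 fold change rose with the length of the gene. Among 9855 coding loci with a mean of at least 100 normalized counts, the median log2 fold change was -1.30 for genes under 10 kb, -0.72 from 10 to 20 kb, -0.36 from 20 to 40 kb, -0.03 from 40 to 80 kb and 0.47 above 80 kb. Spearman's rho with span was 0.51 over these loci and 0.79 over the 8 glycolysis genes, given as descriptions across genes, which are not independent replicates. The shortest, Gapdh (4.75 kb) and Pgam1 (6.74 kb), lay within the lower part of their length class, where 19.8% and 36.9% of loci had a lower log2 fold change. Eno1 (12.2 kb) and Ldha (14.2 kb) were near the bottom of theirs, with 1.26% and 3.21% of 1899 loci lower. Pkm (23.0 kb) and Gpi1 (29.0 kb) had 36.8% and 21.0% of 2224 loci below them. Hk2 (49.4 kb) and Pfkp (69.0 kb) sat near the middle of their class, with 42.8% and 64.7% of 1765 loci lower. Over the 8 genes the log2 fold change was also lower where more of the gene was exon, with a rho of -0.86 against the exonic percentage, which was -0.30 over the coding loci. That percentage ran from 12.1% in Hk2 to 87.0% in Gapdh.

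**Figure D3:**
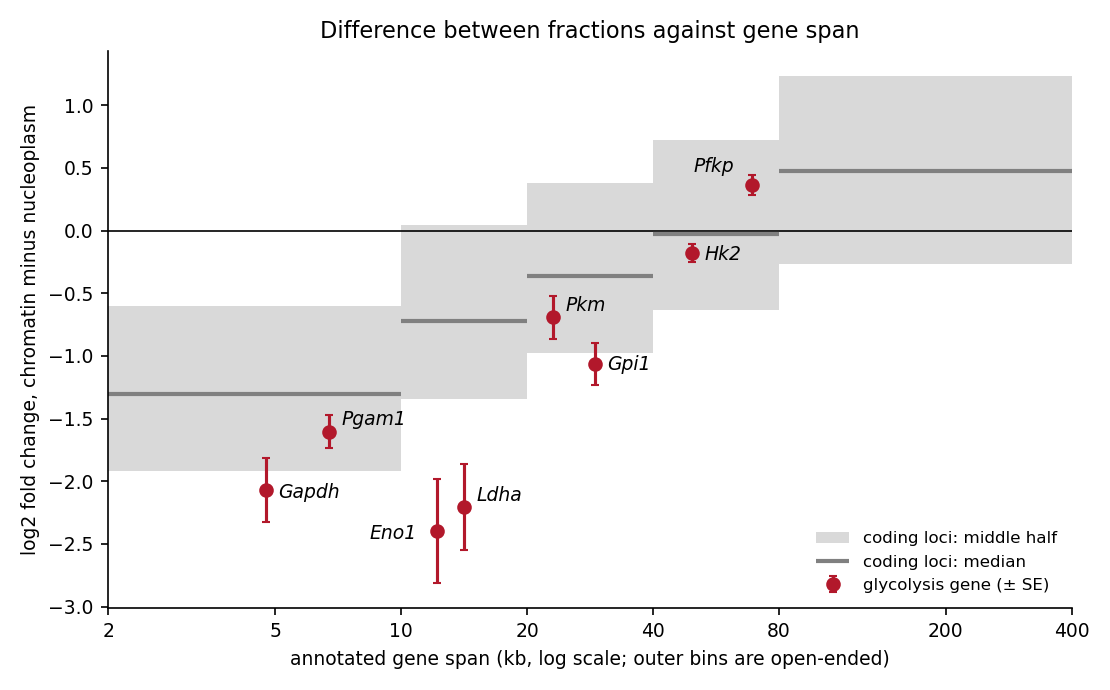
Log2 fold change (chromatin minus nucleoplasm, ± SE) of the 8 glycolysis genes in red against annotated gene span in kb (log scale), over the median (line) and the middle 50% (grey) of coding loci with a mean of at least 100 normalized counts in 5 classes of span. The class median climbs from -1.30 to 0.47, and Eno1 and Ldha lie well below the grey band of the 10 to 20 kb class.

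Levels were compared between genes per kb of annotated exon. In nucleoplasm the mean order was Pkm (24501 normalized counts per kb), Ldha (15350), Pgam1 (7830), Eno1 (7362), Gpi1 (4931), Gapdh (2963), Pfkp (1362) and Hk2 (1166). Only the ranges of Pgam1 and Eno1 overlapped between neighbours. In chromatin the order was Pkm (14980), Ldha (3485), Pgam1 (2575), Gpi1 (2373), Pfkp (1752), Eno1 (1547), Hk2 (1028) and Gapdh (711). There the ranges overlapped from Ldha to Pgam1 to Gpi1, and from Pfkp to Eno1 to Hk2. Pkm was first in both fractions without overlap, at the 99.4th percentile of coding loci by normalized count in chromatin and the 99.9th in nucleoplasm. Gapdh fell from the 91.3rd percentile of coding loci in nucleoplasm to the 64.8th in chromatin. Per kb of the longest coding transcript, 3 of the 8 genes kept their place in chromatin and 5 in nucleoplasm. On that scale Gapdh (2069) lay above Hk2 (1113) in chromatin without overlap, the reverse of their order per kb of exon.

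Long reads measured the chromatin fraction alone, so they give levels and no comparison of fractions. The values are in TPM, transcripts scaled to a fixed total per library, summed over transcripts that lie inside the annotated gene on its strand. The 10 genes summed to 899 TPM in replicate 1 and 592 TPM in replicate 2, and 7 of them were above 0. Pairs of values are those of replicate 1 and replicate 2, in that order.

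Eno1 was highest with 394 and 212 TPM, of which the RefSeq transcript over nearly the whole gene gave 298 and 178 TPM. Ldha followed with 169 and 108 TPM, Aldoa with 108 and 122 TPM, Tpi1 with 116 and 82.8 TPM, and Pkm with 84.9 and 54.0 TPM. Gapdh had only 22.2 and 13.8 TPM, at the 68.4th percentile of the 10359 coding genes above 0, whereas Eno1 was at the 99.3rd. Aldoa was resolved here as a gene of its own, by 3 assembled transcripts that all touch its exons. Pfkp had 4.08 and 0 TPM. Pgam1, Gpi1 and Hk2 had no transcript wholly inside the gene.

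Transcripts that start or end outside the annotated gene changed this picture. Counting every transcript that shares at least 1 bp with the gene on its strand, Pkm rose to 338 and 363 TPM, Gpi1 to 176 and 124, Pgam1 to 132 and 111, Pfkp to 47.4 and 48.7, and Hk2 to 7.42 and 7.74. The values of Gapdh, Tpi1, Eno1 and Ldha were the same under both ways of counting. By this count Pkm was the highest of the 10 genes in the mean of both libraries (351 TPM) and in replicate 2, while Eno1 was above it in replicate 1, and Hk2 was the lowest in both. All 10 genes were then above 0 in both libraries. This count takes only the strand of the gene. Transcripts inside Eno1 on either strand came to 529 TPM in the mean, and Pkm had none on the opposite strand.

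Little of the long-read signal counted inside these genes lay wholly in introns. Assembled intronic transcripts made up 2.29% of the Eno1 value and 5.55% of the Ldha value, and none of that of Gapdh, Aldoa, Tpi1, Pkm or Pfkp. Over the 4827 coding genes with at least 10 TPM the median was 35.9%, with no matching for length or exonic share. Exons cover 87.0% of Gapdh, 74.2% of Tpi1, 52.8% of Aldoa and 44.2% of Eno1. They cover 23.4% of Ldha, 21.7% of Pkm and 19.4% of Pfkp, and the part of the exonic share in these values was not tested. Only transcripts inside the gene enter these shares. For Pkm these are 69.4 of the 351 TPM that touch it in the mean, and Pgam1, Gpi1 and Hk2 have none. RefSeq transcripts gave all of the value of Pkm and Tpi1, 94.4% of that of Ldha and 78.6% of that of Eno1. One more assembled model inside Eno1, of 561 bp, differed between the libraries, with 51.7 and 5.18 TPM.

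**Figure D4:**
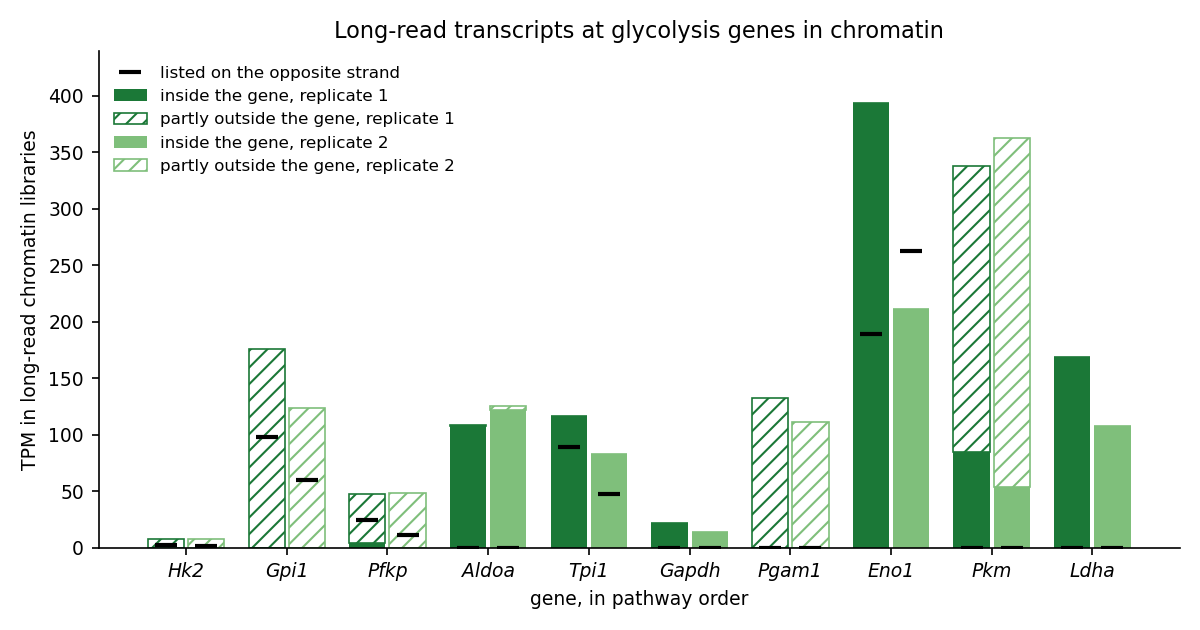
TPM of long-read transcripts at the 10 genes in chromatin replicates 1 (dark) and 2 (light), with filled bars for transcripts inside the gene, hatched bars for those that reach outside it on the same strand, and black dashes for transcripts listed inside the gene on the opposite strand. Eno1 has the tallest filled bars (394 and 212 TPM), and the bars of Pgam1, Gpi1 and Hk2 are hatched throughout.

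Transcripts on the opposite strand inside the 10 genes summed to 393 TPM in the mean long-read library. Eno1 had 189 and 263 TPM of them, Gpi1 97.7 and 60.1, Tpi1 89.0 and 47.3, Pfkp 25.1 and 11.5, and Hk2 2.66 and 1.38. The long-read assembly did not use the strand of the reads, so these cannot be told from transcripts of the genes themselves. The stranded short reads gave a different picture. No opposite-strand locus lay wholly inside Eno1, Gpi1, Tpi1 or Hk2, and 1 lay inside each of Gapdh and Pfkp. The locus opposite Gapdh (chr6:125163287-125165643, plus strand) had 71.2, 51.4 and 89.5 normalized counts in chromatin and from 1.01 to 1.45 in nucleoplasm. It was higher in chromatin, opposite to Gapdh itself, with a log2 fold change of 4.98 (SE 0.38, limma adjusted p = 0.00014). Its nucleoplasm values rest on a recovered count of 4 in all against 205 in chromatin. These counts derive from StringTie abundance estimates and need not be single reads. Taken as if they were reads, they gave a pooled ratio of 56.6. Its 95% binomial interval was 21.8 to 209.9, which covers counting error only. The locus opposite Pfkp (chr13:6631534-6648563, plus strand) had 16.3, 21.0 and 39.5 in chromatin and 15.2, 8.39 and 7.97 in nucleoplasm, and did not pass (limma adjusted p = 0.098).

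Other genes of glucose metabolism were read from the same fit. Of 57 listed genes 55 had a value and 53 were above 0 in at least 1 library. Of these, 27 were lower in chromatin, 5 were higher and 21 did not pass, with a median log2 fold change of -0.85. Over all entries 20.9% were lower and 26.9% higher, with a median of 0.38. Over coding loci 43.4% were lower and 25.5% higher, with a median of -0.32. With ERCC scaling 12 were called lower and 12 higher, against 3110 lower and 12459 higher of the 35817 entries tested. On that scale 12 of the 27 kept their call.

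Among 15 isozyme and side-step genes 8 were lower in chromatin and 1 was higher. The lowest were Pgam2, the muscle mutase (-2.20, SE 0.32), Ldhb, the heart-type lactate dehydrogenase subunit (-1.91, SE 0.38), Aldoc (-1.76, SE 0.31) and Bpgm, which makes 2,3-bisphosphoglycerate (-1.73, SE 0.15). Pgam2 had 1414, 1591 and 783 normalized counts in chromatin and 6053, 6799 and 4175 in nucleoplasm. The neuronal enolase gene Eno2 went the other way, with 171, 203 and 366 in chromatin and 81.9, 97.1 and 26.8 in nucleoplasm, a log2 fold change of 1.94 (SE 0.56, limma adjusted p = 0.030) that was not called after quantile normalization (adjusted p = 0.054). Its value is the sum of 3 RefSeq transcripts and not an assembled locus.

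Of 8 transport genes 4 were lower in chromatin. Bsg, the chaperone subunit of monocarboxylate carriers, had 5561, 6927 and 6115 normalized counts in chromatin and 24221, 26043 and 25679 in nucleoplasm (-2.03, SE 0.11). Slc16a3, a lactate exporter, was at -1.79 (SE 0.27). Slc2a8 at -0.73 (SE 0.10) was also called, though it lay at 0.00 with ERCC scaling. The basal glucose carrier gene Slc2a1 had 9496, 9869 and 9636 in chromatin and 10239, 11516 and 6334 in nucleoplasm, which overlapped (0.09, SE 0.23), and was at 0.83 with ERCC scaling and -0.18 after quantile normalization. Slc2a3 was at -0.95 (SE 0.49) and did not pass.

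Of 12 control genes 3 were higher and 1 was lower, against 26.9% and 20.9% of all entries and 25.5% and 43.4% of coding loci. Pfkfb1, Pfkfb2 and Pfkfb4 encode enzymes that set the level of fructose 2,6-bisphosphate, the activator of phosphofructokinase. Pfkfb1 had 1085, 1034 and 890 normalized counts in chromatin and 172, 152 and 136 in nucleoplasm, a log2 fold change of 2.70 (SE 0.14, limma adjusted p = 3.8e-05). Pfkfb2 was at 1.54 (SE 0.08) and Pfkfb4, from RefSeq transcripts, at 0.68 (SE 0.14), and all 3 stayed above 0 under ERCC, quantile and TMM scaling. Tigar, a fructose bisphosphatase, was lower at -0.86 (SE 0.13), but not called at -0.12 with ERCC scaling. Pdk2 (-1.25, SE 0.47), Txnip (-0.95, SE 0.34), Pdk1 (-0.65, SE 0.24) and Mlxip (0.25, SE 0.12) did not pass, though Mlxip was called higher with ERCC scaling (0.99).

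Of the 7 genes for pyruvate entry into mitochondria 6 were lower. Mpc2, a subunit of the mitochondrial pyruvate carrier, had 318, 369 and 376 normalized counts in chromatin and 1862, 1823 and 1605 in nucleoplasm (-2.31, SE 0.11). Its partner Mpc1 was at 0.10 (SE 0.16), with 3110, 2960 and 2314 against 2800, 2869 and 2160, and was called higher at 0.83 with ERCC scaling. The pyruvate dehydrogenase genes Pdha1 (-1.53, SE 0.11), Dlat (-1.29, SE 0.11) and Dld (-1.03, SE 0.17) were called lower, but with ERCC scaling Dlat (-0.56) and Dld (-0.30) were not. In the pentose phosphate pathway 5 of 6 genes were lower, led by Taldo1 (-1.97, SE 0.10), Pgd (-1.63, SE 0.19), G6pdx (-1.54, SE 0.10) and Tkt (-0.92, SE 0.17, not called at -0.19 with ERCC scaling), and Rpe was at 0.05 (SE 0.10), or 0.78 and called higher with ERCC scaling. Of 5 glycogen genes 3 were lower, namely Gys1 (-1.04, SE 0.21), Ugp2 (-0.85, SE 0.10) and Gbe1 (-0.48, SE 0.15). None of these kept its call with ERCC scaling, where Gys1 was at -0.31, Ugp2 at -0.11 and Gbe1 at 0.25. Pygm was at -0.87 (SE 0.51) without a call. The brain-type phosphorylase gene Pygb was higher (0.42, SE 0.14, limma adjusted p = 0.046), but lay at -0.10 after quantile normalization.

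**Figure D5:**
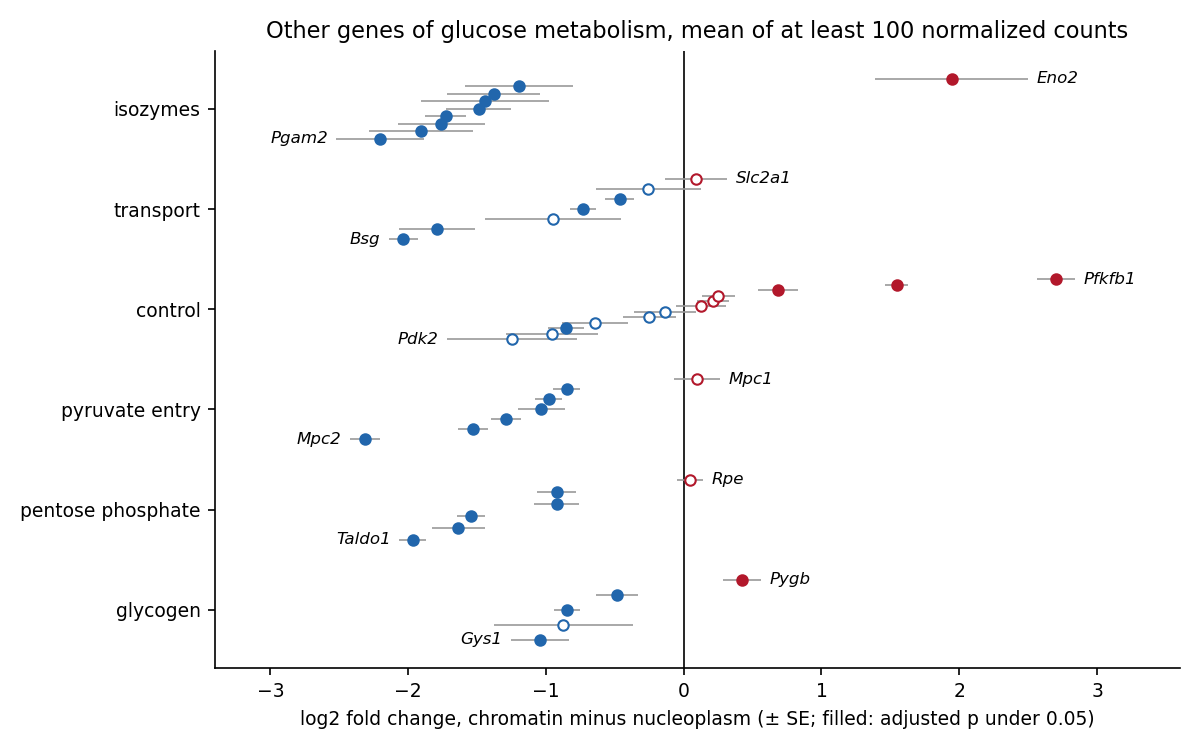
Log2 fold change (chromatin minus nucleoplasm, ± SE) of 46 other genes of glucose metabolism with a mean of at least 100 normalized counts, in 6 lists, with filled symbols for an adjusted p under 0.05 and the lowest and highest gene of each list named. Most lists lie left of 0, while Pfkfb1 (2.70), Pfkfb2 (1.54), Pfkfb4 (0.68), Eno2 (1.94) and Pygb (0.42) lie to the right and passed, of which Pygb was below 0 and Eno2 not called after quantile normalization.

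The centred log2 values of the 8 genes over the 6 libraries were averaged to a mean profile. It was compared by Euclidean distance with 9847 other coding loci with a mean of at least 100. The nearest were Phf13 (distance 0.09), Crat, the carnitine acetyltransferase gene (0.09), Sort1 (0.10), Aph1a (0.10) and Entpd5 (0.11). Their log2 fold changes lay between -1.29 (Crat) and -1.15 (Entpd5). Those of the 8 genes ran from -2.39 (Eno1) to 0.36 (Pfkp), so the mean profile does not describe each gene. Crat had 1435, 1628 and 1118 normalized counts in chromatin and 3492, 3635 and 2992 in nucleoplasm, with replicate 3 the lowest in each fraction.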

How the data were processed

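The genes and lists were chosen with earlier results of these data known. The authors aligned short reads to mm10 with hisat2 2.1.0, assembled and re-estimated transcripts with StringTie, and deposited gene counts divided by DESeq2 size factors. These deposited values are a normalized count signal. Each divided by the smallest nonzero value of its library gave whole numbers (100%, tolerance 0.01), used as counts for edgeR and DESeq2 as alternatives. For long reads, aligned with minimap2, the authors deposited TPM from StringTie.

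Chromatin was compared with nucleoplasm, 3 libraries each, on log2(value + 1) by limma 3.58.1 in R 4.3.3 (trended variance), called at an adjusted p under 0.05. The p-values measure the spread between these cultures. Genes were placed by span overlap with GENCODE M21, and in the lists by RefSeq accession entries where no locus was found. Alternatives changed pseudocount, filter, trend, tool (edgeR 4.0.16, DESeq2 1.42.0), scaling, libraries and replicate block, and scripts were tested on simulated data.

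Named are the 10 genes, Pgk1, 3 controls, at most 4 genes per list and direction with a mean of at least 100, and the 5 nearest profiles. Others (Gm7336, Gm6560, opposite-strand loci) were named after their values were seen.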

Additional observations from a re-analysis of the deposited data

How the results depend on the processing

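Gapdh, Pgam1, Eno1 and Ldha were called lower in chromatin under every alternative run. ERCC scaling called 4 of the 8 genes lower, none by more than 4 fold, and moved the log2 fold change of Pkm to 0.042 and that of Hk2 to 0.55. With it 3110 entries were lower, 222 by more than 4 fold, and 12459 were higher, against 7477, 1754 and 9633 with the deposited scaling. Of the other genes of glucose metabolism it called 12 lower and 12 higher. Quantile normalization moved the log2 fold change of Pfkp to -0.058. No gene of the 8 was called higher (0) with edgeR with or without the block, limma without a trend or quantile normalization. The other genes of glucose metabolism called higher were 3 with edgeR and the replicate block and 3 with no filter. Hk2 was called lower with TMM, DESeq2, edgeR with or without the block and quantile normalization and without both libraries numbered 3. Leaving out 1 library at a time gave 5 to 6 genes lower, 1 higher, and 0 to 3 lower by more than 4 fold (0 without chromatin replicate 3, 2 without nucleoplasm replicate 2). The other genes were 23 to 28 lower and 3 to 4 higher, against 5 with all libraries. Taking the merged loci for Aldoa and Tpi1 gave 8 lower, 4 by more than 4 fold. Summed long-read TPM was 745 as the mean, 1139 over either strand and 1354 with 1 bp shared.

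Libraries of the same number correlated at 0.098, 0.089 and 0.22 in their deviations, each best with its own number, a hint from the data only. With the replicate block limma called 7 of the 8 genes lower and 1 higher, with Hk2 gained (adjusted p = 0.044), and 33 other genes lower and 6 higher. edgeR with the replicate block called 8533 entries lower and 7757 higher, against 7659 and 7735 without it, and Pfkp had an adjusted p of 0.051. Summing the entries of a gene changed nothing, as each has 1. Counting RefSeq entries alone was not run, since none of the 10 genes has one. The 3 libraries per fraction limit precision. The cause of these changes was not tested.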
